A study of Homo sapiens with 4 samples.

Results

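To examine m6A on the transcripts that switch the kinase AKT on and off, the peaks of 8 genes were followed in meRIP-seq of OE-19 cells, an established cell line of adenocarcinoma of the esophagogastric junction (AEG). The genes were the kinases AKT1 and AKT2, the mTORC2 genes MTOR, RICTOR, PRR5 and PRR5L, and the phosphatases PHLPP1 and PHLPP2. They were chosen by name, with earlier results of these data known, among the 20046 protein-coding genes of the annotation. In meRIP-seq, RNA fragments that carry N6-methyladenosine (m6A) are captured by an antibody, and a peak is a stretch where the captured fragments exceed the background. The cells carried no treatment or genetic change according to the labels, and the series held 2 IP (immunoprecipitation) and 2 input samples. Separate peak lists were made for the IP samples, with 24607 peaks for replicate 1 and 19318 for replicate 2, and peaks of the input were not analysed here. A peak was given to a gene where its summit lay in the gene body. The 8 gene bodies held 25 peaks of replicate 1 and 20 of replicate 2, of which 20 and 17 had the summit in an annotated exon. Depth is unknown because read numbers are not part of the lists, and the study's text calls the replicates biological without saying that they came from separate cultures.

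AKT is a kinase that promotes growth, survival and glucose uptake and is recruited to the membrane by the lipid product of PI3K. Full activity needs phosphorylation by PDK1 in the activation loop and by mTORC2 in the carboxy-terminal hydrophobic motif. MTOR is the catalytic subunit of mTORC2 and also of mTORC1, RICTOR is the scaffold that defines mTORC2, and PRR5 and PRR5L (Protor proteins) bind RICTOR. PHLPP1 and PHLPP2 are leucine-rich repeat phosphatases that remove the phosphate of the hydrophobic motif and so act as brakes of AKT. m6A is written on nascent RNA by a complex around METTL3, mostly in the sequence GGAC and close relatives of it, and it is known to lie near stop codons and in long exons.

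Each of the 8 genes carried an exonic peak in both lists, as did 33.4% of all protein-coding genes. Counted singly, replicate 1 had such a peak in 42.4% and replicate 2 in 34.1% of these genes. Long transcripts offer more room for a peak, so the count was also set beside genes above a lower limit of length. Among 14242 genes with a reference transcript at least as long as that of PRR5, the shortest at 1872 nt, the portion was 40.9%. Among 8223 genes with at least the 5241 nt of merged exons of PRR5, it was 46.7%. The other members are longer than PRR5 on both measures, so neither background is matched to them in length. The 8 genes were also chosen with earlier results of these data known, so their count is no independent support. Levels of RNA were not used, so a gene with little RNA and a gene without m6A cannot be told apart in any such count.

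A set of sites inside the peaks is shown to place the motif in its local sequence. Each line gives 29 nt of hg38 on the gene's strand, written 5′ to 3′, with GGAC in capitals and its adenine at the centre. For each peak shown, the GGAC nearest to the summits was taken within the overlap of both replicates' intervals. Peaks have no base resolution, so a match is a description of the sequence and not a mapped m6A site.
AKT2 3′ UTR, chr19:40232741-40232769, minus strand: cgtgtgtcggcgGGACgcaggcacacgtg
RICTOR exon 31, chr5:38950088-38950116, minus strand: tgctacaactatGGACacagactgtggaa
PRR5 exon 1, chr22:44702543-44702571, plus strand: ggccgccgccgcGGACgagcggggcacgc
PRR5 exon 8, chr22:44736982-44737010, plus strand: agggccccaccgGGACcttcaggtcctcc
PRR5L exon 9, chr11:36462508-36462536, plus strand: caatgcccactcGGACatccagctgctgg
PHLPP1 exon 1, chr18:62716340-62716368, plus strand: gctctgcacactGGACaccacggccggcg
PHLPP1 exon 17, chr18:62978966-62978994, plus strand: ggaggtggaggtGGACatccactgcagcc
PHLPP2 exon 19, chr16:71649099-71649127, minus strand: tgtgcccctagaGGACagcctgaacctca

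The 8 sites lie in coding sequence except that of AKT2. Within 50 nt of the exonic summits of replicate 1, the GC content ranged from 39.6% at RICTOR exon 31 to 75.2% at PRR5 exon 8.

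**Figure D1:**
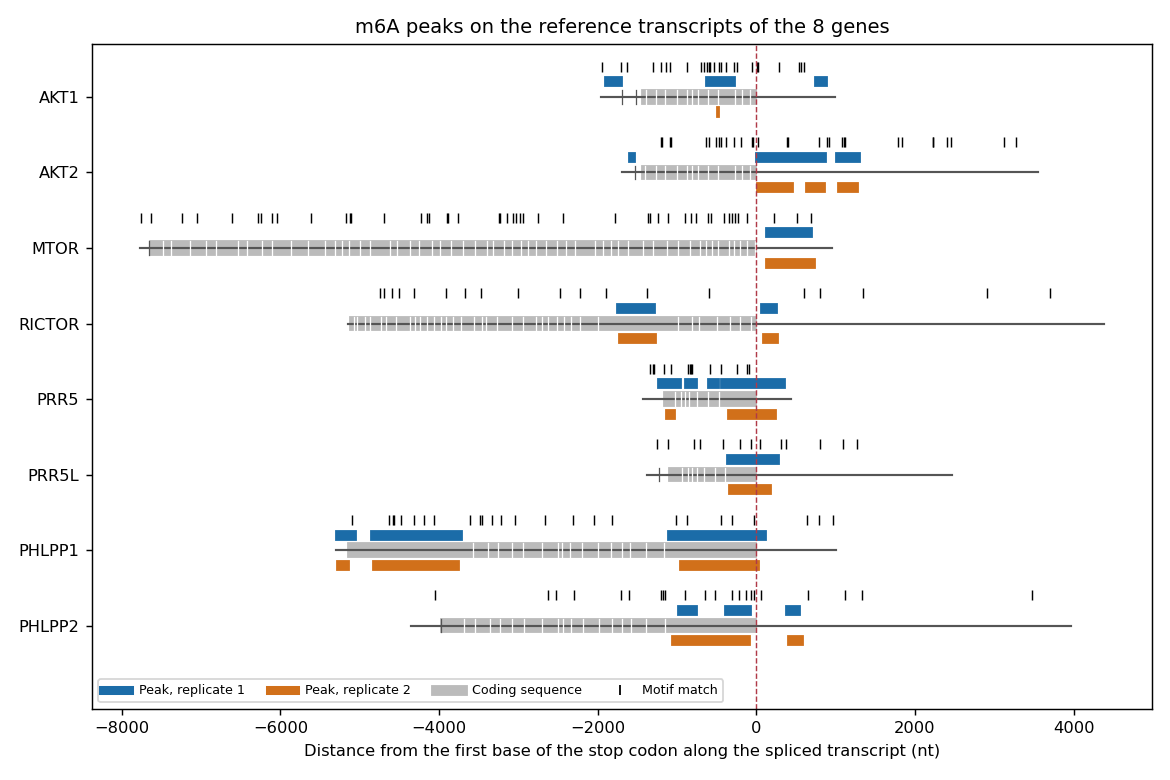
Peaks of replicate 1 (blue) and replicate 2 (orange) on the spliced reference transcript of each gene, against the distance in nt from the stop codon (its opening base, dashed line). Grey boxes are coding sequence with exon junctions as lines, and ticks mark GGAC motifs. Peaks lie in the 3′ UTR of AKT2 and MTOR, in a long internal exon and the 3′ UTR of RICTOR, and at both ends of PHLPP1. The bar at the left of AKT1 is the exonic part of a replicate 1 peak whose summit lies in an intron. Bars of PRR5 in replicate 1 also include exonic parts of peaks with the summit in an intron.

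First, the AKT kinases were examined. Their exonic peaks had the lowest median of the 3 classes, and all lay below the median of all exonic peaks, which was 5.3 fold in replicate 1 and 4.82 fold in replicate 2. Fold enrichment is the peak caller's ratio of the signal at the summit over its local background, and the q-value is given as −log10 q.

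AKT1 (ENSG00000142208.18, chr14:104769349-104795751, minus strand) has 15 exons in its reference transcript. A peak in the coding sequence was found in both replicates, at 2.14 and 2.13 fold in replicates 1 and 2. Its −log10 q was 5.96 and 4.43. Although the values were close, the peaks were not the same interval. Replicate 1 had a peak of 605 bp (chr14:104772867-104773471) with its summit in exon 12, 363 nt upstream of the stop codon, whereas replicate 2 had 188 bp with its summit in exon 11. The summits lay 282 bp apart in the genome and 124 nt apart in the spliced transcript, and only 30 nt of the overlap lay in exons of the reference transcript. AKT1 was the gene lost from the count of 8 when q of 1e-05 or less was required. A further exonic peak of replicate 1, 781 nt after the stop codon in the 3′ UTR, had 2.91 fold and no counterpart. Replicate 1 also had 2 peaks with the summit in intron 1, with fold enrichments of 4.26 and 6.53 at 660 and 284 nt from the transcript start. Annotated exons held 208 of the 327 bp of the stronger. Those intronic peaks had a GC content of 69.3% and 84.7% and no counterpart in replicate 2.

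AKT2 (ENSG00000105221.18, chr19:40230317-40285536, minus strand) ends in an exon of 3635 nt, and all of its shared peaks lay in the 3′ UTR part of that exon. The peak farther from the stop codon reached 4.33 and 3.03 fold in replicates 1 and 2, with summits 1159 and 1101 nt after the stop codon. Nearer to it, a peak of 889 bp in replicate 1 had a fold enrichment of 3.22 and its summit 223 nt after the stop codon. That wide interval met 2 peaks of replicate 2, which had fold enrichments of 2.65 and 3.10 with summits at 236 and 761 nt. The 3′ UTR of AKT2 was thus covered by peaks of both replicates over 943 nt. A 5′ UTR peak with a fold enrichment of 2.8 was present in replicate 1 only, 109 nt from the transcript start.

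The ranking of AKT2 depended on which value was read. For its wide peak in replicate 1 the −log10 q of 21.0 stood at percentile 69.9 of exonic peaks and the fold enrichment of 3.22 at percentile 17.1. By contrast, the RICTOR exon 31 peak had a −log10 q of 22.0 at percentile 71.5 and a fold enrichment of 9.0 at percentile 82.8. PRR5L gave a like picture, with a −log10 q of 20.3 and a fold enrichment of 8.55. A low fold of AKT2 was therefore not a peak near the caller's limit of q, which is 0.05.

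Next, the mTORC2 genes were examined. MTOR, the catalytic subunit (ENSG00000198793.14, chr1:11106535-11262556, minus strand), had a single peak in each replicate, and both lay in the 3′ UTR of exon 58. The fold enrichment was 3.78 and 3.8, the −log10 q 12 and 12.9, and the summits lay 392 and 362 nt after the stop codon. MTOR is the gene with the most exons here, 58 over a transcript of 8721 nt, and only 1 of them, the last, is longer than 400 nt. No peak of either replicate lay in its 7647 nt of coding sequence.

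RICTOR, the scaffold of mTORC2 (ENSG00000164327.14, chr5:38937920-39074402, minus strand), carried a peak far inside the coding sequence. It lay in exon 31, which is 1009 nt long where the median exon of the transcript is 102 nt. Enrichment was 9.0 fold in replicate 1 and 8.96 fold in replicate 2, a log2 ratio of 0.01. Summits at codons 1201 and 1206 lay 14 bp apart, 1523 and 1509 nt upstream of the stop codon. The 3′ UTR held another peak, with fold enrichments of 5.6 and 5.14 at 159 and 200 nt after the stop codon, in a last exon of 4459 nt.

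PRR5, a RICTOR partner (ENSG00000186654.21, chr22:44668547-44737681, plus strand), had the most peaks of the 8 genes, with 7 in its body in replicate 1 and 6 in replicate 2. All of its 3 shared exonic peaks were higher in replicate 1. In exon 1 the fold enrichment was 7.34 and 2.46, a log2 ratio of 1.57 that stood at percentile 97.9 of 11741 exonic peak pairs. In exon 8 it was 5.04 and 2.98, with summits 234 and 241 nt upstream of the stop codon. The strongest, with 9.1 and 5.28, had its summits in an exon of a retained-intron transcript. On the reference transcript these summits lie in intron 4. Exon 7 had a weak peak of 2.88 fold, found only in replicate 1, whose −log10 q was 3.33. Exons 1 and 7 also belong to the readthrough gene PRR5-ARHGAP8 on the same strand, so the gene behind those peaks is uncertain.

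Most of the PRR5 signal outside exons of the reference transcript lay in a single intron. Intron 4 is 5095 nt long, and peaks covered 83.1% of it in replicate 1 and 72.2% in replicate 2. Both values include the peak in the exon of the retained-intron transcript, counted above as exonic. Replicate 1 called an interval of 3656 bp there (chr22:44727247-44730902) with a fold enrichment of 11.5, at percentile 96.3 of intronic peaks. Replicate 2 called 2 intervals over the same stretch, with fold enrichments of 5.41 and 8.15. The stronger of these stood at percentile 93.7, and its summit lay 20 bp from that of replicate 1. A smaller peak at the start of the intron had 3.49 and 4.56. In intron 1 a peak of 5.86 was found in replicate 1 only. Of the non-exonic peaks of the 8 genes, 2 of 5 in replicate 1 and 3 of 3 in replicate 2 were shared, all of them in this intron, beside 39.6% and 36.0% of all intronic peaks. The GGAC beside both strongest summits is shown because no annotated reference exon covers it.
PRR5 intron 4, chr22:44730384-44730412, plus strand: ctgtgcatccctGGACccagcagccctca

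The adenine of this GGAC lay 1 nt before the summit of replicate 1 and 21 nt before that of replicate 2. The 3656 bp interval held 24 GGAC on the gene's strand and 27 on the other strand, and the lists carry no strand.

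PRR5L, the paralogue of PRR5 (ENSG00000135362.14, chr11:36296288-36465204, plus strand), had 1 peak in each replicate. It lay at the coding end of exon 9, an exon of 2863 nt that also holds the 3′ UTR. Enrichment was 8.55 and 8.87 fold in replicates 1 and 2, and the summits lay 148 and 202 nt upstream of the stop codon. Both Protor transcripts thus had a shared peak in the coding part of the last exon, at 5.04 and 2.98 in PRR5 and at these higher values in PRR5L.

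The brakes were examined in the same way. PHLPP1 (ENSG00000081913.14, chr18:62715541-62980433, plus strand) had 3 exonic peaks in each replicate, and all were shared. Of these, 2 lay in exon 1, which is 1719 nt long and holds the 5′ UTR and the start of the coding sequence. The 5′ UTR peak reached 21.8 fold in replicate 1 but 4.4 fold in replicate 2, with −log10 q of 41.6 and 8.57. The summits were 19 bp apart, at 58 and 77 nt from the transcript start, and the replicate 1 peak began 50 bp upstream of the annotated start. This was the largest value among the exonic peaks of the 8 genes in replicate 1, at percentile 99.7, but replicate 2 put it at percentile 43.1. Its log2 ratio of 2.31 stood at percentile 99.9 of exonic pairs.

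The other PHLPP1 peaks differed less between the replicates. In the coding part of exon 1 a peak of over 1000 bp in each replicate had fold enrichments of 9.16 and 7.0, with summits 778 and 923 nt from the transcript start. Exon 17, the last at 2172 nt, held a peak with 8.9 and 8.52 whose summits lay 830 and 470 nt upstream of the stop codon. The peaks at exon 17 were 1242 and 993 bp wide, so the position of the summit within them was less settled than their presence. Together the shared intervals covered 35.4% of the PHLPP1 transcript, a portion passed only by PRR5 with 38.7%.

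PHLPP2 (ENSG00000040199.18, chr16:71637835-71724701, minus strand) has a last exon of 5121 nt, which held all of its peaks on the reference transcript. A coding peak had 14.7 and 8.1 fold in replicates 1 and 2, with summits 179 and 247 nt upstream of the stop codon. Replicate 2 called it as an interval of 985 bp, and that interval also met a separate replicate 1 peak with a fold enrichment of 5.66. In the 3′ UTR the fold enrichment was 9.65 and 7.91 at 473 and 495 nt after the stop codon. Another peak, with 12.6 and 8.55, cannot be given to PHLPP2 with certainty. Its summits lay in an exon of 2 PHLPP2 transcripts annotated as targets of nonsense-mediated decay, and on the other strand in exon 3 of the protein-coding gene MARVELD3.

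**Figure D2:**
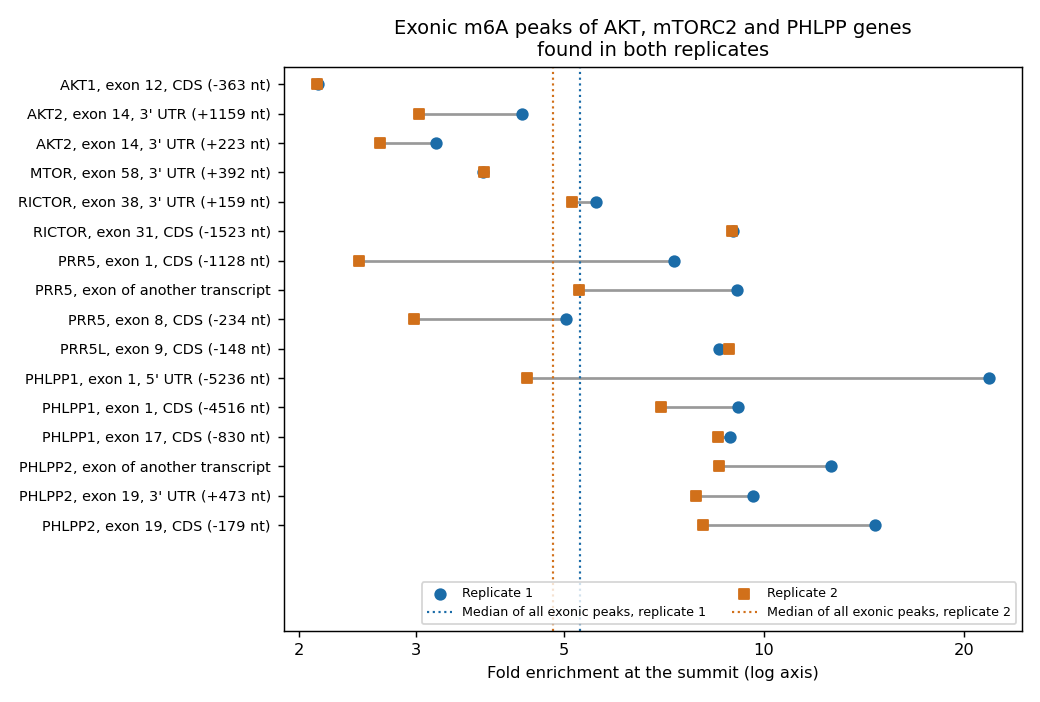
Fold enrichment at the summit, on a log axis, of the 16 exonic peaks of the 8 genes found in both replicates (circles replicate 1, squares replicate 2), with dotted lines at the medians of all exonic peaks. Positions in parentheses are nt from the stop codon to the summit in replicate 1. The PHLPP1 5′ UTR and PRR5 exon 1 peaks have the widest gaps between the replicates, 21.8 against 4.4 and 7.34 against 2.46.

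To see how far the replicates gave the same peaks, overlaps of at least 1 bp were counted. Of the 20 exonic peaks in replicate 1, 17 were shared (85.0%, 95% Wilson interval 64.0% to 94.8%), against 60.2% of all its exonic peaks. All 17 exonic peaks in replicate 2 were shared (100%, interval 81.6% to 100%), against 95% of all its exonic peaks. The intervals cover counting error only. The unshared peaks were those of the AKT1 3′ UTR, the AKT2 5′ UTR and PRR5 exon 7, with fold enrichments of 2.8 to 2.91. Across the 16 exonic pairs in which each peak was the other's largest overlap, the median log2 ratio of replicate 1 over replicate 2 was 0.34. Replicate 1 was higher in 14 of the 16, or 87.5%. Over all 11741 such pairs the median was 0.43, with replicate 1 higher in 80.0%.

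Then the brakes were set against the activators. In both replicates the order of the medians was the same, with AKT kinases lowest, mTORC2 genes between and PHLPP genes highest. The median fold enrichment of exonic peaks was 9.65 in replicate 1 and 8.01 in replicate 2 for PHLPP1 and PHLPP2. It was 6.47 and 5.14 for the mTORC2 genes, and 2.91 and 2.84 for AKT1 and AKT2. For all 8 genes it was 6.5 and 5.14. Without peaks that had an exon of a second gene at the summit, it was 9.4 and 7.91 for PHLPP genes. For the mTORC2 genes it was then 7.08 and 5.21. The ranges and counts that follow include such peaks, among them the uncertain PHLPP2 peak with 12.6 and 8.55. The ranges of the PHLPP peaks (5.66 to 21.8 and 4.4 to 8.55) did not overlap those of the AKT peaks (2.14 to 4.33 and 2.13 to 3.1) in either replicate. The mTORC2 peaks (2.88 to 9.1 and 2.46 to 8.96) overlapped both classes. At least 5 fold was reached by 13 of 20 member peaks in replicate 1, where the background was 55.0%, and by 9 of 17 in replicate 2, where it was 47.1%. All 7 PHLPP peaks passed that value in replicate 1 and 5 of 6 in replicate 2, while 0 of the 5 and 0 of the 4 AKT peaks did. Among mTORC2 peaks, 6 of 8 and 4 of 7 passed it. The median −log10 q did not follow that order in replicate 2, where it was 15.1 for AKT genes, 12.9 for mTORC2 genes and 15.4 for PHLPP genes.

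The number of peaks per length of exon was compared as well. PHLPP genes had 0.325 exonic peaks per kb of merged exons in replicate 1 and 0.278 in replicate 2, and mTORC2 genes had 0.207 and 0.181. The ratio of these rates was 1.57 (95% interval from the peak counts 0.593 to 4.17) and 1.54 (0.543 to 4.37), so both intervals included equal rates. The ratio moved with single genes, to 2.72 and 2.33 without PRR5, the shortest and most densely covered gene, and to 1.17 in both replicates without MTOR. AKT genes had 0.186 and 0.149 peaks per kb. All protein-coding genes with a peak in both replicates had 0.36 and 0.263 per kb, above the 0.23 and 0.195 of the 8 genes together. Peaks with an exon of a second gene at the summit were also left out, which gave ratios of 1.8 and 1.5. The difference between the classes was not tested, since 2 libraries of a single condition do not replicate the classes and peaks of the same library share their source.

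**Figure D3:**
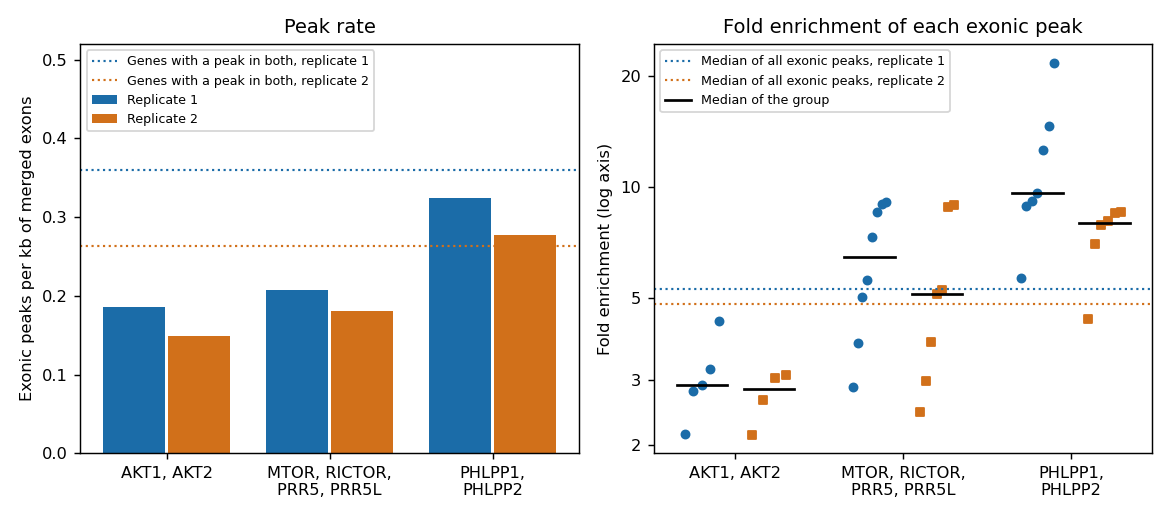
Left, exonic peaks per kb of merged exons for each class and replicate, with dotted lines at the rate of all protein-coding genes with a peak in both replicates (0.36 and 0.263). Right, fold enrichment of each exonic peak on a log axis (circles replicate 1, squares replicate 2), with the class median as a black line and the median of all exonic peaks dotted, where AKT peaks lie below and PHLPP peaks mostly above the dotted lines.

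Taking the strongest shared peak of each gene gave an order of the 8 genes. Its geometric mean fold enrichment over the replicates was 2.13 for AKT1, 3.62 for AKT2 and 3.79 for MTOR. These stood at percentiles 0.68, 12.1 and 13.7 of 6613 protein-coding genes with such a peak, whose median was 6.52 and whose quartiles were 4.72 and 8.82. PRR5 followed with 6.93, at percentile 55.0, from the exon of the retained-intron transcript. Its best pair on the reference transcript, in exon 1, gave 4.25, below the lower quartile. PRR5L (8.71, percentile 73.9), RICTOR (8.98, percentile 76.4), PHLPP1 (9.8, percentile 82.4) and PHLPP2 (10.9, percentile 88.2) made up the upper part. The replicate values of MTOR fell within those of AKT2, and the range of PHLPP1 took in those of RICTOR and of PHLPP2. AKT1 lay below AKT2 in both replicates. MTOR lay below PRR5 in both only with the retained-intron exon counted, since in replicate 2 its 3.8 was above the 2.46 and 2.98 of PRR5 exons 1 and 8. The value of PHLPP1 came from the 5′ UTR peak, and its exon 17 peak gave 8.71.

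Where in the transcript the peaks lay was then compared. On the reference transcripts lay 18 exonic summits of replicate 1 and 15 of replicate 2. Coding sequence held 10 and 8 of them (55.6% and 53.3%), beside 59.3% and 59.1% of all summits on reference transcripts. The 3′ UTR held 6 and 6 (33.3% and 40.0%), beside 31.5% and 35.2%, and the 5′ UTR 2 and 1, beside 9.12% and 5.7%. The last exon held 11 and 10 summits (61.1% and 66.7%), beside 51.4% and 60.3%. Near the stop codon, within 200 nt, lay 3 summits in replicate 1, of RICTOR, PRR5L and PHLPP2, and 1 in replicate 2, of RICTOR, where the background was 24.6% and 27.2%. Other members lay somewhat outside that window, such as PRR5 at 234 and 241 nt and AKT2 at 223 and 236 nt. Exons longer than 400 nt held 15 of the 18 and 14 of the 15 summits (83.3% and 93.3%), beside 75.4% and 89.3% of all summits on reference transcripts. The exceptions were AKT1 in both replicates and, in replicate 1, the AKT2 5′ UTR and PRR5 exon 7.

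Finally, each summit was searched for the motif, reading the gene's strand. GGAC lay within 50 nt of 7 of 20 exonic summits in replicate 1 (35.0%, 95% Wilson interval 18.1% to 56.7%) and 8 of 17 in replicate 2 (47.1%, 26.2% to 69.0%). All exonic summits of protein-coding genes had it at 49.9% and 51.8%, and 30.2% of tiles of the windows' length along all reference transcripts held it. Both of these lie within the intervals of the members. On the other strand of the same windows GGAC was found at 7 and 4 summits, beside 31.3% and 29.5% of all summits and 25.4% of tiles. With AGAC and GAAC added, 15 of 20 and 14 of 17 summits had a match, beside 79.8% and 82.6% of all summits and 65.7% of tiles.

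The members differed in how their summits related to the motif. At PRR5 exon 8, GGAC lay 15 and 8 nt upstream of the summits, and at PHLPP2 it lay 42 nt upstream in replicate 1 and 26 nt downstream in replicate 2. No GGAC lay within 50 nt of a summit of MTOR or RICTOR. In RICTOR exon 31 the only GGAC of the overlap lay 144 and 130 nt downstream of the summits. An AGAC, shown with a GAAC of the 3′ UTR peak and one of MTOR because these lay closer, was 66 and 52 nt downstream. The capitals here mark those 4-base sequences.
RICTOR exon 31, chr5:38950166-38950194, minus strand: aagtttcaatacAGACactacaacaagtg
RICTOR 3′ UTR, chr5:38942139-38942167, minus strand: catgaacagttgGAACtgctgactttcct
MTOR 3′ UTR, chr1:11107048-11107076, minus strand: tcaggtcgtggaGAACatggattaggatc

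In the RICTOR 3′ UTR the adenine of GAAC lay 6 nt before the summit of replicate 1 and 47 nt before that of replicate 2. The overlaps of the PHLPP1 5′ UTR, PHLPP2 3′ UTR and RICTOR 3′ UTR peaks held no GGAC at all. These are letters of the genome, and the absence of GGAC says only that these windows do not hold it.

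Most GGAC motifs of the 8 transcripts lay outside peaks. The reference transcripts held 199 over 46800 nt, of which 34 (17.1%) lay in a peak of both replicates and 146 in none. Intervals covered by both replicates made up 13.6% of the sequence and held 5.33 GGAC per kb, against 4.08 elsewhere. The genes differed, since the density inside was lower than elsewhere in MTOR, RICTOR and PRR5 and higher in the other genes. PHLPP1 had the most motifs under peaks, 11 of 26 (42.3%), in intervals that made up 35.4% of its transcript. MTOR had the most motifs, 48, with 3 (6.25%) under its peak, in intervals over 6.69% of its transcript. RICTOR had 1 of 19 (5.26%), in intervals over 6.76%. AKT1, with the highest density at 8.79 per kb, had 1 of 26 in a peak of both replicates.

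**Figure D4:**
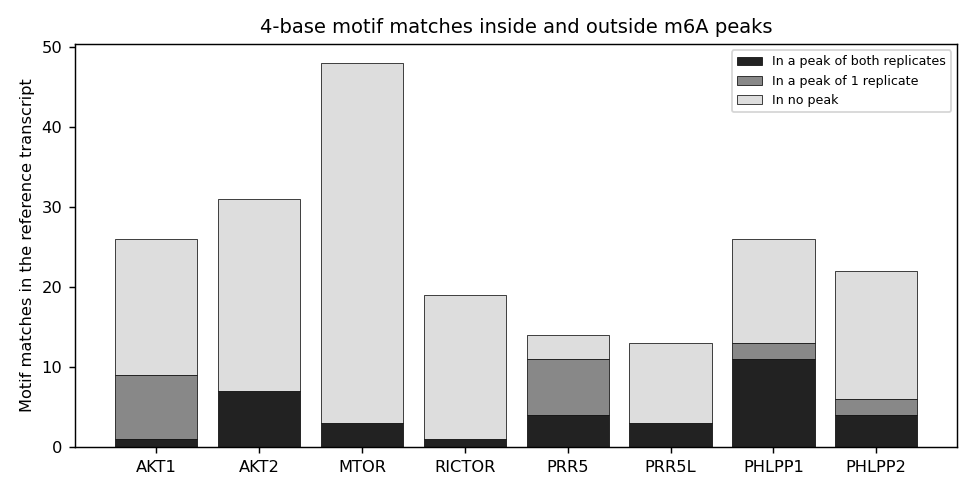
Number of GGAC motifs in the reference transcript of each gene, split into those in a peak of both replicates (black), of 1 replicate (grey) and of none (light). MTOR has 48 motifs with 3 in a peak of both replicates, and PHLPP1 26 with 11.

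To place the 8 genes in their pathway, 46 further genes in 5 lists were examined. Of these, 30 (65.2%) had an exonic peak in both replicates, 6 in replicate 1 alone, 0 in replicate 2 alone and 10 in neither. A peak in both was found in 33.4% of all protein-coding genes and in 46.7% of those with at least the merged exons of PRR5, and the counts of each list stand beside the same background. The lists were chosen with earlier results of these data known, so these counts are no independent support. Upstream of AKT, 8 of 10 genes of PI3K and PDK1 signalling had such a peak. PIK3CA, the catalytic subunit of PI3K, had fold enrichments of 14.3 and 15.7 with summits 31 and 28 nt upstream of the stop codon. PIK3R1, its regulatory subunit, had 12 and 11.9 in the 3′ UTR. PDPK1, which encodes PDK1, had 7.78 and 3.97 in the 3′ UTR, where an exon of another gene overlaps.

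Among the other brakes of AKT, 9 of 14 had a peak in both replicates. By the geometric mean of the replicates, the highest values of that list were those of TRIB2, with 13.5 and 7.2, and of INPP5E, an inositol phosphatase, with 11.2 and 4.98. TRIB2 is a pseudokinase that binds AKT and has also been described as promoting its activity, so its place among the brakes is uncertain. The median of the strongest shared peak was 6.54 in this list, below the 8.84 of PI3K and PDK1 and below PHLPP1 and PHLPP2.

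Of 6 other genes of the mTOR complexes and of the chaperone that stabilises mTOR, 4 had a peak in both. The highest were TTI1 and TTI2, partners of that chaperone and not complex subunits, with 11.1 and 6.29 for TTI1 and 9.57 and 6.12 for TTI2. The others with such a peak were MLST8 and TELO2, and DEPTOR had a peak in replicate 1 alone. In the TSC-RHEB and mTORC1 list it was 3 of 6, with TSC1, an inhibitor of mTORC1, at 15.1 and 9.05, and AKT1S1, the AKT substrate PRAS40, at 9.99 and 8.26. In the list of SGK kinases and AKT substrates it was 6 of 10. FOXO1, a transcription factor that AKT keeps out of the nucleus, had 18.5 and 15.1 in the 3′ UTR, and FOXO4 had 11.8 and 8.4. The genes with no exonic peak in either replicate were PIK3CD, PIK3R3, INPP5D, PPP2R1A, PPP2R1B, MAPKAP1, TBC1D7, RHEB, SGK1 and SGK3. MAPKAP1 encodes the mTORC2 subunit SIN1, so mTORC2 did not have peaks on every gene.

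**Figure D5:**
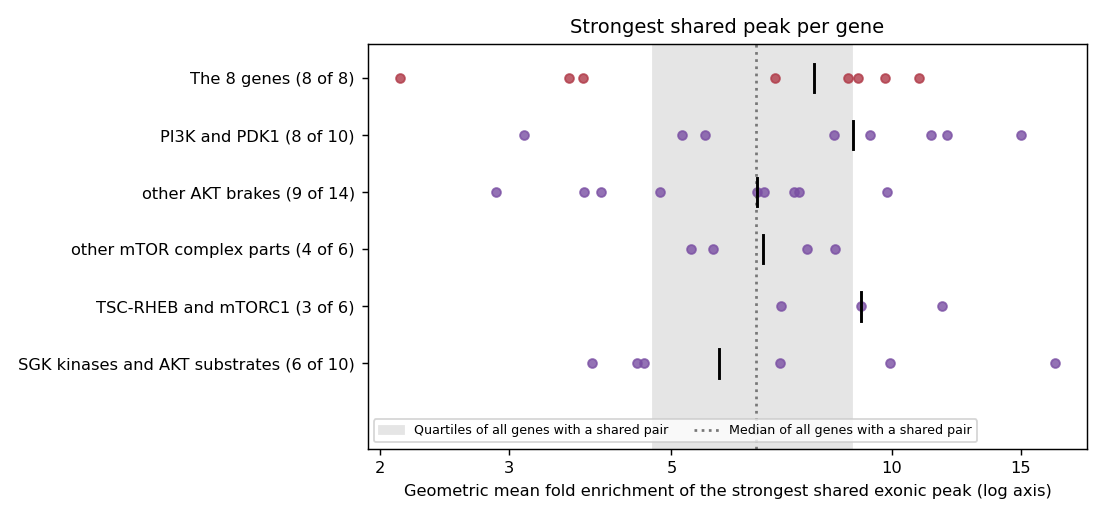
Geometric mean fold enrichment of the strongest exonic peak shared by the replicates, on a log axis, 1 point per gene, for the 8 genes (red) and the 5 pathway lists (purple), with the list median as a black line. Grey marks the quartiles of all 6613 protein-coding genes with such a peak, 4.72 and 8.82, and AKT1, AKT2 and MTOR are the 3 red points to its left.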

How the data were processed

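meRIP-seq peak lists of 2 m6A IP samples of OE-19 cells were used, grouped by their labels. According to the study's methods, DNase-treated and fragmented total RNA was incubated with the antibody, whereas the labels describe UV-fixed, lysed cells. The methods name TopHat2 and MACS2, and the submitters' processing notes name fastp, HISAT2, MACS2 and hg38. Versions are not given in the sources used here, nor is it stated whether the input served as control. The authors deposited 1 list per sample, with each summit's fold enrichment (a ratio over the caller's background), −log10 of the p-value, −log10 of the q-value and a score, which was not used. Because the local background enters the fold, genes with unequal folds need not differ in m6A. The study's methods name a directional kit under RNA-seq and no library kit for meRIP-seq, and the lists carry no strand.

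Genes and exons came from GENCODE version 44, and the reference transcript was the MANE Select transcript. Coordinates are 1-based hg38. Peaks overlapping by at least 1 bp were shared, and pairs were mutual largest overlaps. Intervals are 95% Wilson intervals, and the interval of the rate ratio was derived from one. Scripts were tested on simulated peak lists. The number of peaks sets the precision, because no read numbers were given.

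Named were the 8 genes, from each pathway list the 2 genes whose best shared exonic peak had the highest geometric mean fold, PDPK1 and genes without peaks. A few items of the lists are not reported here and were left out of the counts. Members and lists were chosen with earlier results of these data known, so no pattern here is independent support. Alternatives were other q and fold enrichment limits, lists of equal length, peak midpoints, other overlap, motif and exon rules, and each replicate left out. Python 3.11.15, numpy 2.4.6, pandas 2.3.3, pysam 0.24.0 and matplotlib 3.10.9 were used.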

Additional observations from a re-analysis of the deposited data

How the results depend on the processing

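Of 70 alternative values, 62 stayed within 1.5 times the count or within the interval of the value reported, 8 moved and 0 reversed. Requiring at least 5 fold, 5 of the 8 genes and 17 of the 46 pathway genes kept an exonic peak in both replicates, and 13 and 9 exonic peaks remained in the 8 genes in replicates 1 and 2. Under an overlap of 50% of both peaks, 55.0% of the exonic peaks in replicate 1 and 64.7% in replicate 2 were shared, and with summits within 100 bp it was 76.5% in replicate 2. Peak midpoints in place of summits put GGAC within 50 nt of 57.1% of the exonic peaks in replicate 1. At least 5 fold was reached by 55.0% and 47.1% of all exonic peaks in replicates 1 and 2. The other shares over all genes or all peaks were not computed under these rules. Whether such moves are particular to these genes therefore cannot be told. Leaving out each replicate in turn gave 8 to 8 of the 8 genes and 30 to 36 pathway genes. A count in 1 list cannot be lower than the count in both, so these values could not fall. Lists of equal length left the list of replicate 2 unchanged, because it is the shorter. Values of both kinds are among the 62 that stayed. So are all alternatives of the rate ratio, whose intervals (0.593 to 4.17 and 0.543 to 4.37) were too wide for them to leave easily. With summits within 100 bp, sharing in replicate 1 fell from 85.0% to 65.0%. It still counted as staying, because the interval began at 64.0%. The rate ratio of PHLPP to mTORC2 genes ranged from 1.41 to 2.1 in replicate 1 and from 1.37 to 2.24 in replicate 2, and its lower ends came from exons of the reference transcript alone, an alternative chosen after seeing the data. The causes were not tested.

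No paired analysis was possible because input peaks were not analysed here and the IP samples form 1 group. With 2 libraries, no read numbers and no levels of RNA, a weaker peak, less RNA and a higher local background cannot be told apart, and differences between genes rest on the spread of 2 values.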

Other observations

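Peaks near the transcript start were looked at after the values of PHLPP1 and PRR5 had been seen. Within 500 nt of the start of the reference transcript lay 4 summits of the 8 genes in replicate 1, of which 1 was the AKT1 intron 1 peak at 284 nt, and 2 in replicate 2, and 2 in each were shared, those of PHLPP1 and PRR5 exon 1. Over all genes, 41.0% of exonic peaks there in replicate 1 and 94.5% in replicate 2 were shared. The median log2 ratio of replicate 1 over replicate 2 was 0.49 over 1282 pairs within 500 nt of the start and 0.43 over 8835 pairs farther away, where the PHLPP1 and PRR5 pairs had 2.31 and 1.57. The difference was not tested.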
